A study of Homo sapiens with 9 samples.

Results

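The YAP-TEAD regulators and targets described here are 10 genes chosen by name, YAP1, WWTR1, TEAD1, LATS2, AMOTL2, AJUBA, CCN1, CCN2, ANKRD1 and AXL, out of 63187 genes in the count table. All 10 were among the 16030 genes with enough counts to be tested. One of them, AXL, fell in cells exposed to EC, from 1209 ± 34.3 CPM in the control to 899.5 ± 5.81 CPM (SD, n = 3, CPM being counts scaled to the library size), and its values separated all 3 conditions without overlap. In EC vs. control, 13.5% of all genes tested passed an adjusted p of 0.05 (edgeR), and the groups of 17.3% did not overlap. How many genes separate all 3 conditions was not counted. The AXL call was lost in a model without the batch (adjusted p = 0.108, edgeR), in which 0.0998% of all genes tested passed. YAP1, WWTR1 and TEAD1, which encode the transcription factors and coactivators of the pathway, did not pass the test in any comparison. CCN1, CCN2, AMOTL2 and AJUBA differed more between batches of the experiment than between the conditions.

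The cells were BEAS-2B, an immortalized human bronchial epithelial cell line grown in serum-containing medium. The control was left untreated. PG/VG cells received the aerosol condensate of the carrier liquid, which is propylene glycol and vegetable glycerine, diluted to 2% (v/v) in the medium, over 24 h. EC cells received, at that dilution and for that time, a condensate made from an e-cigarette liquid that also held 18 mg/mL nicotine and Virginia tobacco flavor, so that nicotine and flavor cannot be told apart. Each condition had 3 libraries of poly-A RNA, which carried the batch labels 2, 3 and 4 with 1 library of each condition per batch, and all cells came from the same line. The libraries held 16168260 to 24917838 counts on genes, with 1445 to 25563 counts on each of the 10 genes. Together these genes took 0.325% to 0.426% of the counts of a library.

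Markers of the line were checked before the results. Of 9 epithelial markers, 6 reached a mean of 1 CPM in the control and 7 in PG/VG and in EC, with summed levels of 1780 to 2849 CPM in the control, 1725 to 2742 in PG/VG and 1464 to 2292 in EC. The sum came from keratins of simple epithelium, whereas EPCAM and CDH1 (E-cadherin) stayed at or under 1.93 CPM in every library and KRT5 at or under 0.056 CPM. Mesenchymal markers, mainly fibronectin, vimentin and N-cadherin, summed to 5047 to 7031 CPM in the control, 4656 to 6748 in PG/VG and 3561 to 5471 in EC, and 5 of 7 reached 1 CPM in each condition. Of 5 markers of airway cell types (basal, club, ciliated and goblet), 0 passed the filter. Their sum was at most 1.09 CPM in any library. Leukocyte markers summed to 3.22 to 9.02 CPM and endothelial markers to 4.4 to 9.68 CPM, and the T cell marker CD3E had 0 counts in every library. Against the control, 3 of 8 tested epithelial markers fell in EC, and of 5 tested mesenchymal markers 2 fell and 1 rose (adjusted p under 0.05, edgeR), where 5.38% of all genes tested fell and 8.07% rose. In PG/VG 2 mesenchymal markers rose and 1 fell, and 0 epithelial markers passed, where 2.63% of all genes rose and 1.90% fell. Between the treatments, 1 epithelial and 1 mesenchymal marker were lower in EC, beside 0.299% of all genes. The part of these shifts in the results that follow was not tested. In bulk RNA, fewer cells of a type and less RNA per cell cannot be told apart.

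YAP1 and its paralog WWTR1 (TAZ) are coactivators without a DNA-binding domain of their own. When the Hippo kinases phosphorylate them they are held in the cytoplasm and degraded. When the kinases are inactive, on stiff substrates or in spread cells with tense actin, they enter the nucleus and bind TEAD proteins on DNA. Their targets include secreted matrix proteins, growth factors and several of the pathway's own inhibitors, and in airway epithelium the pathway is known for its part in basal cell growth and repair. Activity of YAP1 and WWTR1 is set largely by phosphorylation and location, which RNA levels do not measure.

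TEAD proteins recognize the core GGAATG, which was searched on both strands (reverse CATTCC) in the 250 bases before each RefSeq start on GRCh38.p14. A start was listed for 8 of the 10 genes, with 12 windows in all. At least 1 copy of the core lay in 6 of these 12 windows, 1 each of YAP1, CCN2, ANKRD1, AMOTL2, AJUBA and AXL. The other windows of AMOTL2, AJUBA and AXL held none. For comparison, 11.9% of the 35116 windows of the whole table held a copy and 0.94% held at least 2. The windows below are those of YAP1, which encodes the coactivator itself, of CCN2 and ANKRD1, the 2 genes here with more than 1 copy in a window, and of AXL, the gene that fell in EC. They lie just before the annotated genes, at chr11:102110197-102110446 (plus strand) for YAP1, chr6:131951373-131951622 (minus strand) for CCN2, chr10:90921088-90921337 (minus strand) for ANKRD1 and chr19:41218973-41219222 (plus strand) for AXL, and are written 5′ to 3′ in the direction of the gene, with the core in capitals.
YAP1: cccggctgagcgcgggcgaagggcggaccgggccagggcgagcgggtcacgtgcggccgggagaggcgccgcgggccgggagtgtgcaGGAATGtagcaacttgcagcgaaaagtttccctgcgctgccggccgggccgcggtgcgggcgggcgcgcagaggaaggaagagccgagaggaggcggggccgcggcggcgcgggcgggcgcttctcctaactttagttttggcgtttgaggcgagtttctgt
CCN2: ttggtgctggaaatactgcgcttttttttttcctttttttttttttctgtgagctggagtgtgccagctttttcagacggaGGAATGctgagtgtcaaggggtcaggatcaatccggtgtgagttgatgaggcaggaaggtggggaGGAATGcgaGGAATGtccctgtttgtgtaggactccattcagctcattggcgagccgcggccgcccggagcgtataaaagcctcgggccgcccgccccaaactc
ANKRD1: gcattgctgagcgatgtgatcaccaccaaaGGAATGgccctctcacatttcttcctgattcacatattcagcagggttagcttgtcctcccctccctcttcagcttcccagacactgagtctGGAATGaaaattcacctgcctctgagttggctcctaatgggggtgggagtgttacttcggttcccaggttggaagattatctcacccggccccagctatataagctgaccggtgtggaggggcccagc
AXL: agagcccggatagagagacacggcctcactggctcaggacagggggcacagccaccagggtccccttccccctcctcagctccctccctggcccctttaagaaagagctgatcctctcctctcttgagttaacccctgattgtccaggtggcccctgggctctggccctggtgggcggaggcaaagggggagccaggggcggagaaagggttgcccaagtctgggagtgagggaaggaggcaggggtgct

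In CCN2 the copies began 169, 104 and 95 bases before the start. In ANKRD1 they began 220 and 128 bases before it, and in YAP1 162 bases before it. AMOTL2 had a copy on the opposite strand 69 bases before 1 of its starts, and AJUBA had a copy 59 bases before 1 of its starts. The AXL window shown held none, while a second, internal start of AXL had a copy on the opposite strand 212 bases upstream. The windows of WWTR1 and LATS2 held no copy. A match is a description of the letters and does not show binding.

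The 10 genes covered a wide range of levels. Per kilobase of exon, the control means were 235.5 ± 6.67 CPM per kb for AXL, 201.8 ± 51.0 for CCN1 and 172.7 ± 77.6 for CCN2 (SD, n = 3), and these neighbours overlapped in range. ANKRD1 (73.0 ± 1.86 CPM per kb) and AJUBA (70.3 ± 15.8 CPM per kb) followed, overlapping each other and neither overlapping CCN2. YAP1 (43.0 ± 0.259 CPM per kb), AMOTL2 (41.2 ± 8.77) and TEAD1 (34.5 ± 5.32) formed the next step. LATS2 (17.2 ± 1.53 CPM per kb) and WWTR1 (11.6 ± 0.787) were lowest and did not overlap. The order was the same in PG/VG. In EC, CCN1 (184.4 ± 34.9 CPM per kb) came before AXL (175.2 ± 1.13), and their ranges overlapped. YAP1 exceeded WWTR1 per kb by 3.21- to 4.06-fold over the 9 libraries, with a median of 3.53.

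**Figure D1:**
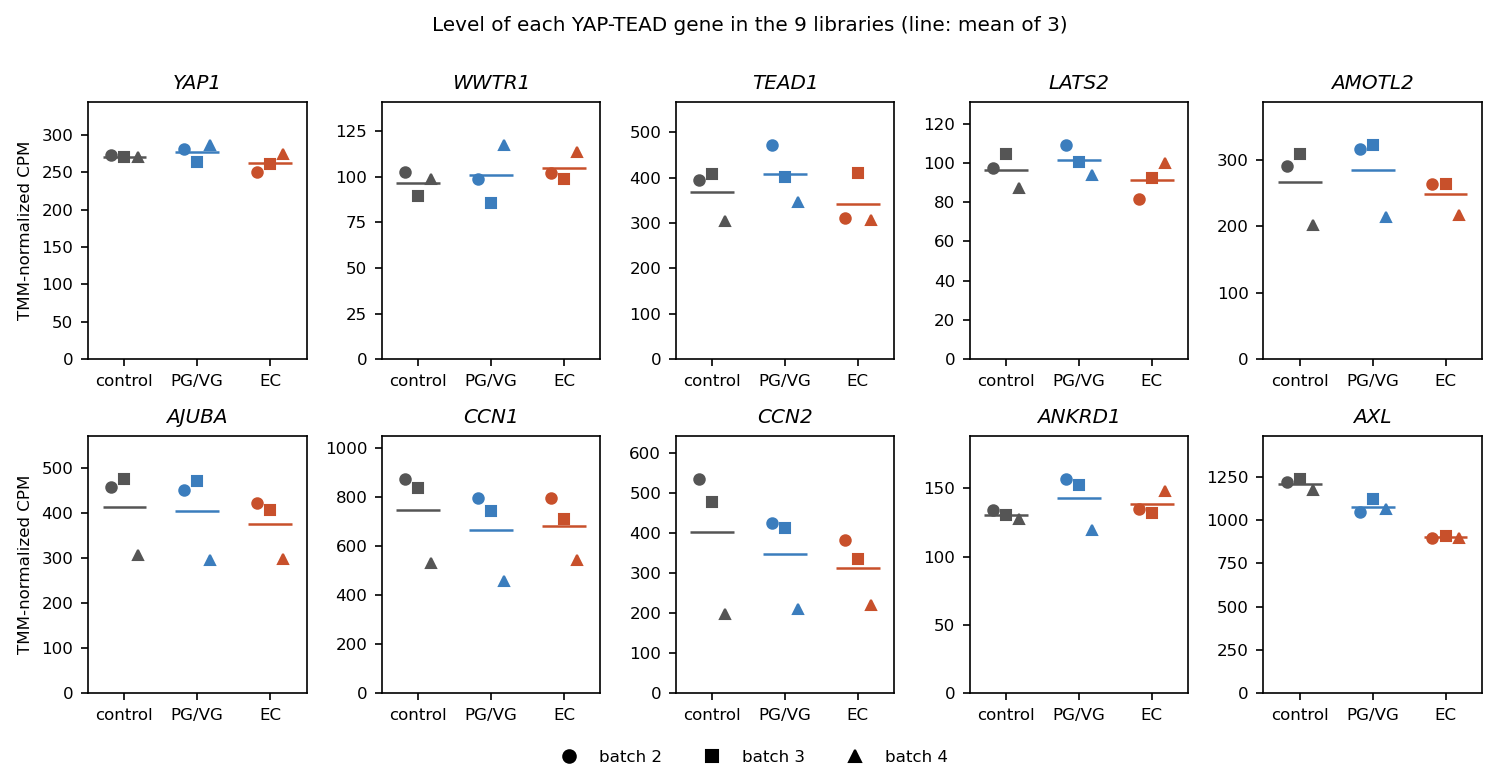
Each panel plots the TMM-normalized CPM of 1 gene in the 9 libraries by condition, with a symbol for each batch and a line at the mean of 3 libraries, on an axis from 0. AXL separates the conditions, with 1171 to 1238 CPM in the control, 1047 to 1120 in PG/VG and 894.6 to 905.9 in EC, while CCN1, CCN2, AMOTL2 and AJUBA are lower in batch 4 in every condition.

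Differences between conditions were tested for all 16030 genes by the quasi-likelihood method of edgeR, with the batch in the model and p-values adjusted over these genes after Benjamini and Hochberg, and LFC is the fitted log2 fold change with its standard error (SE). In EC vs. control, 1 of the 10 genes passed an adjusted p of 0.05, where 13.5% of all genes tested did and 5.38% did so with a lower level in EC. In PG/VG vs. control it was 0 of the 10, where 4.54% of all genes passed, and in EC vs. PG/VG 0 of the 10, where 0.855% passed. The unadjusted p was under 0.05 in edgeR for 2 of the 10 genes in EC vs. control (CCN2 and AXL), beside 27.4% of all genes, for 2 in PG/VG vs. control (CCN1 and AXL), beside 20.1%, and for 3 between EC and PG/VG (TEAD1, AMOTL2 and AXL), beside 12.9%. The PG/VG and EC comparisons share the same 3 control libraries, so their values are not independent. In EC vs. control the median LFC of the 10 genes was −0.093, beside 0.0078 for all genes tested, and 8 of the 10 had an LFC below 0, beside 48.5% of all genes. In PG/VG vs. control the medians were 0.041 and 0.013, and 4 of the 10 were below 0, beside 47.1% of all genes. When EC was set against PG/VG the medians were −0.11 and 0.0024, with 8 of the 10 and 49.3% of all genes below 0. These medians moved with single libraries. Leaving out 1 library gave −0.19 (without EC replicate 4) to −0.040 (without EC replicate 2) in EC vs. control, −0.014 (without control replicate 4) to 0.066 (without control replicate 2) in PG/VG vs. control, and −0.22 (without EC replicate 4) to −0.047 (without EC replicate 2) between the treatments.

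**Figure D2:**
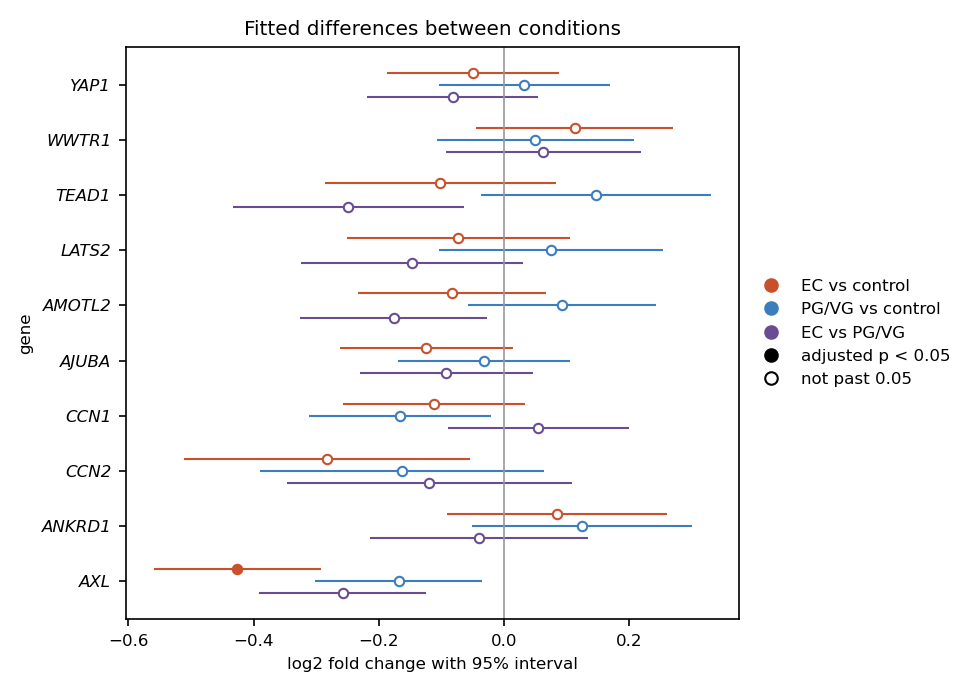
Points are the fitted LFC of each gene in the 3 comparisons with approximate 95% intervals, filled where the adjusted p was under 0.05. The filled point is AXL in EC vs. control at −0.43, and the intervals of AXL lie below 0 in all 3 comparisons.

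AXL (ENSG00000167601, chromosome 19, 41219223 to 41261766, plus strand) encodes a receptor tyrosine kinase whose ligand is GAS6 and which is a described target of YAP and TEAD. In batches 2, 3 and 4 it measured 1219, 1238 and 1171 CPM in the control, 1047, 1120 and 1061 CPM in PG/VG, and 898, 905.9 and 894.6 CPM in EC. The highest EC library lay below the lowest PG/VG library, and the highest PG/VG library lay below the lowest control. The EC vs. control LFC was −0.43 (SE 0.064, 95% interval −0.56 to −0.29, a fold of 0.744), with an adjusted p of 0.000125 in edgeR. Within batches 2, 3 and 4 the log2 ratio was −0.44, −0.45 and −0.39. The PG/VG vs. control LFC was −0.17 (SE 0.064, interval −0.30 to −0.035) with an adjusted p of 0.138 in edgeR, and the within-batch values were −0.22, −0.14 and −0.14. EC vs. PG/VG gave −0.26 (SE 0.064, interval −0.39 to −0.12) with an adjusted p of 0.057 in edgeR, just short of the threshold, with −0.22, −0.31 and −0.25 within the batches.

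AXL was the one gene of the 10 whose condition groups did not overlap, in each of the 3 comparisons. The groups of EC vs. control did not overlap for 17.3% of all genes tested, 7.42% with EC lower. In PG/VG vs. control this held for 14.2%, 6.37% with PG/VG lower. Between the treatments it held for 7.91%, 3.37% with EC lower. The share without overlap in all 3 comparisons at once was not counted. The call in EC vs. control held in 9 of 9 fits that left out 1 library, with adjusted p values from 5.94e-05 to 0.00264 in edgeR, and without batch 4 as a whole, with an LFC of −0.46 and an adjusted p of 0.00209. In a model without the batch as a replicate block the LFC was again −0.43 but the adjusted p was 0.108 in edgeR. That model called 16 of all genes tested, in place of 2157 with the block. In EC vs. PG/VG, leaving out control replicate 4 brought the adjusted p of AXL to 0.0459 in edgeR.

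The receptors and ligands related to AXL were read beside it. Of TYRO3, MERTK, GAS6 and PROS1, 1 rose in EC vs. control, where 8.07% of all genes tested rose. In PG/VG vs. control and in EC vs. PG/VG 0 passed, where 4.54% and 0.855% of all genes did. PROS1, which encodes protein S, a ligand of the family, had 46.6, 41.9 and 42.7 CPM in control batches 2, 3 and 4 and 58.8, 60.7 and 49.2 CPM in EC, with an LFC of 0.36 (SE 0.086, adjusted p = 0.00649, edgeR). The EC libraries of PROS1 lay above all 3 controls, where the groups of 17.3% of all genes tested did not overlap. Its PG/VG libraries, at 56.4, 46.7 and 52.9 CPM in batches 2, 3 and 4, also lay above all 3 controls, beside 14.2% without overlap. Leaving out control replicate 3 or EC replicate 3 ended the call of PROS1 in EC, with an adjusted p of up to 0.0852 in edgeR.

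Of the coactivators, YAP1 (ENSG00000137693, chromosome 11, 102110447 to 102233424, plus strand) was the steadiest gene of the set. It measured 273, 270.4 and 269.9 CPM in the control, 281.6, 263.4 and 287.2 CPM in PG/VG, and 250.2, 261.1 and 274.9 CPM in EC. The highest library exceeded the lowest by 1.15-fold and the conditions overlapped. Its LFC was −0.050 in EC vs. control (SE 0.066, interval −0.19 to 0.087) and 0.032 in PG/VG vs. control (SE 0.066, interval −0.10 to 0.17). About 10.1% of the YAP1 exon length is shared with other annotated genes. Reads that overlapped several genes were left out of the counts, and the strand setting is not given in the sources used here.

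WWTR1 (ENSG00000018408, chromosome 3, 149517235 to 149736714, minus strand) measured 102.3, 89.5 and 98.5 CPM in the control, 98.6, 85.8 and 117.6 CPM in PG/VG, and 102.1, 98.6 and 113.4 CPM in EC. The lowest value of every condition came from batch 3, and the conditions overlapped. Its LFC was 0.11 in EC vs. control (SE 0.076, interval −0.045 to 0.27) and 0.050 in PG/VG vs. control (SE 0.076, interval −0.11 to 0.21). About 9.05% of the WWTR1 exon length overlaps other annotated genes.

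TEAD1 (ENSG00000187079, chromosome 11, 12674421 to 12944737, plus strand), a DNA-binding partner of both coactivators, varied most among these 3 regulators. It measured 395.1, 407.9 and 303.5 CPM in the control, 472.6, 401.9 and 346.1 CPM in PG/VG, and 311.9, 408.9 and 306.6 CPM in EC. The highest value, 472.6 CPM, was that of PG/VG replicate 2, and outside batch 4 the lowest, 311.9 CPM, was that of EC replicate 2. EC vs. PG/VG gave an LFC of −0.25 (SE 0.088, adjusted p = 0.206, edgeR), with −0.60, 0.025 and −0.17 within batches 2, 3 and 4. Against the control the LFC was −0.10 in EC (interval −0.29 to 0.082) and 0.15 in PG/VG (interval −0.037 to 0.33).

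LATS2, AMOTL2 and AJUBA act on the coactivators, and LATS2 and AMOTL2 are also among their targets. LATS2 (ENSG00000150457, chromosome 13, 20973036 to 21061586, minus strand) encodes a kinase that phosphorylates YAP1 and WWTR1. It measured 97.4, 104.5 and 87.4 CPM in the control, 109.4, 100.7 and 94.0 CPM in PG/VG, and 81.9, 92.6 and 100.1 CPM in EC. Batch 4 was the lowest library of the control and of PG/VG but the highest of EC. The EC vs. control LFC was −0.073 (SE 0.086, interval −0.25 to 0.11), with −0.25, −0.17 and 0.20 within batches 2, 3 and 4.

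AMOTL2 (ENSG00000114019, chromosome 3, 134355347 to 134375479, minus strand), an angiomotin family protein that binds YAP1 and keeps it out of the nucleus, measured 289.8, 308.2 and 201.8 CPM in the control, 315.9, 322.8 and 214.3 CPM in PG/VG, and 263.8, 263.4 and 217.5 CPM in EC. Its EC vs. control LFC was −0.084 (SE 0.073, interval −0.23 to 0.066) and its EC vs. PG/VG LFC −0.18 (SE 0.072, adjusted p = 0.287, edgeR). In batches 2 and 3 both EC values were below the controls and the PG/VG values, while in batch 4 the EC value was the highest of the 3 conditions.

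AJUBA (ENSG00000129474, chromosome 14, 22971177 to 22982551, minus strand), a LIM protein that holds LATS kinases at cell junctions under tension, measured 458, 476.2 and 306.7 CPM in the control, 450.6, 470.5 and 295 CPM in PG/VG, and 422.7, 407.8 and 299.2 CPM in EC. The EC library was below the control in each batch. The LFC was −0.12 (SE 0.067, interval −0.26 to 0.013, adjusted p = 0.236, edgeR) in EC vs. control and −0.032 (SE 0.067) in PG/VG vs. control.

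CCN1, CCN2 and ANKRD1 are the genes most often read as targets of YAP and TEAD. CCN2 (ENSG00000118523, chromosome 6, 131948176 to 131951372, minus strand) encodes connective tissue growth factor, a secreted matrix protein. It measured 535.6, 478.6 and 196.9 CPM in the control, 424.9, 411.6 and 210.4 CPM in PG/VG, and 381.9, 336.4 and 220.9 CPM in EC. In batches 2 and 3 the control was highest and EC lowest, and in batch 4 the order was turned round. The EC vs. control LFC was −0.28 (SE 0.11, interval −0.51 to −0.054) with an adjusted p of 0.0996 in edgeR, and the within-batch values were −0.49, −0.51 and 0.17. Without batch 4 it was −0.51 with an adjusted p of 0.00128 in edgeR. PG/VG vs. control gave −0.16 (SE 0.11, adjusted p = 0.425, edgeR), with −0.33, −0.22 and 0.095 within the batches. About 11.9% of the CCN2 exon length overlaps other annotated genes.

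CCN1 (ENSG00000142871, chromosome 1, 85580761 to 85584589, plus strand), which encodes the related matrix protein CYR61, measured 874.2, 834.5 and 529.6 CPM in the control, 797, 744.6 and 459.6 CPM in PG/VG, and 794.7, 709.2 and 541.4 CPM in EC. PG/VG was below the control in each batch, by −0.13, −0.16 and −0.20 on the log2 scale. The LFC was −0.17 (SE 0.070, interval −0.31 to −0.022, adjusted p = 0.18, edgeR) in PG/VG vs. control and −0.11 (SE 0.070, adjusted p = 0.323, edgeR) in EC vs. control. Per kb, CCN1 exceeded CCN2 by 1.03-fold in control replicate 2 and by 1.70-fold in control replicate 4, the lowest and highest of the 9 libraries.

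ANKRD1 (ENSG00000148677, chromosome 10, 90912096 to 90921087, minus strand), a nuclear ankyrin repeat protein, measured 134.2, 130.3 and 127.5 CPM in the control, 157, 152.1 and 119.6 CPM in PG/VG, and 134.8, 132.1 and 148.3 CPM in EC. The control libraries were close together, and both treated groups reached above them in some batches. The LFC was 0.13 (SE 0.085, interval −0.051 to 0.30) in PG/VG vs. control and 0.085 (SE 0.085, interval −0.091 to 0.26) in EC vs. control. The within-batch values in PG/VG were 0.23, 0.22 and −0.092.

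**Figure D3:**
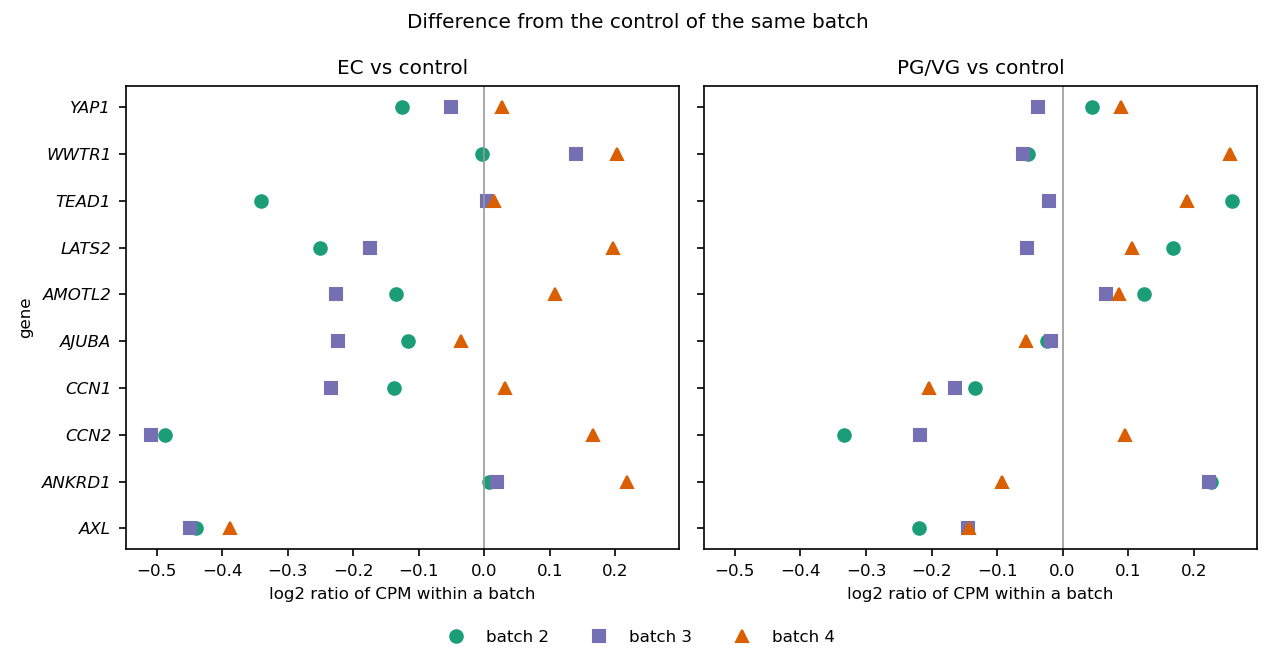
Points are the log2 ratio of CPM between a treated library and the control of the same batch, for EC on the left and PG/VG on the right, with 1 pair of libraries per point and no error. AXL has 3 close points in EC (−0.44, −0.45 and −0.39), whereas CCN2 has −0.49 and −0.51 in batches 2 and 3 and 0.17 in batch 4.

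The batch itself was tested in the same model. It passed an adjusted p of 0.05 for 6 of the 10 genes, beside 34.3% of all genes tested (edgeR). The difference was carried by batch 4 in CCN2, CCN1, AJUBA, AMOTL2 and TEAD1. CCN2 averaged 447.5 ± 79.3, 408.9 ± 71.2 and 209.4 ± 12.03 CPM in batches 2, 3 and 4 (SD, n = 3 conditions), a fold of 2.14 between highest and lowest (adjusted p = 5.9e-06, edgeR). CCN1 averaged 822, 762.8 and 510.2 CPM (adjusted p = 9.61e-08), AJUBA 443.8, 451.5 and 300.3 CPM (adjusted p = 2.51e-07) and AMOTL2 289.8, 298.1 and 211.2 CPM (adjusted p = 1.36e-05) in the same order. TEAD1 was lower in batch 4 by a smaller amount, with 393.2, 406.2 and 318.7 CPM (adjusted p = 0.00731), and WWTR1 differed with its highest mean in batch 4, at 101, 91.3 and 109.8 CPM (adjusted p = 0.0244).

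For CCN1, CCN2, AMOTL2 and AJUBA, all 3 batch 4 libraries lay below all 6 others. These are 4 of the 10 genes, beside 14.6% of all genes tested. The CCN2 values, for example, were 196.9 to 220.9 CPM in batch 4 and 336.4 to 535.6 CPM in the other libraries, so the batches did not overlap while the conditions did. YAP1, LATS2, ANKRD1 and AXL did not pass for the batch, with adjusted p values from 0.61 to 0.77 in edgeR. All 3 batch 4 libraries lay above all 6 others for 0 of the 10, beside 14.5% of all genes. Among 21 further targets of YAP and TEAD, batch 4 was wholly lower for 7 and wholly higher for 3, and among 12 genes of serum response factor (SRF) for 7 and 1. Of 17 Hippo kinases and scaffolds 3 were lower and 2 higher, of 12 binding partners 3 and 0, and of 5 other TEAD genes and cofactors 3 and 1. Of the markers tested, 4 of 8 epithelial and 3 of 5 mesenchymal ones were lower and 0 higher. What the cultures of batch 4 shared is not given in the sources used here, and its part in these levels was not tested.

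Whether a treatment effect was the same in batch 4 as in batches 2 and 3 was tested with an added term, chosen after the batch values were seen. For EC vs. control, 0 of the 10 genes passed, where 0.0125% of all genes did. The largest difference was that of CCN2, whose EC vs. control LFC was 0.66 higher in batch 4 (SE 0.13, unadjusted p = 0.000175, adjusted p = 0.201, edgeR). LATS2 followed with 0.41 (SE 0.15, adjusted p = 0.591) and AMOTL2 with 0.29 (SE 0.13, adjusted p = 0.648), and AXL had 0.057 (SE 0.12, adjusted p = 0.943) in the same edgeR fit. For PG/VG vs. control it was again 0 of the 10, beside 0.00% of all genes, and CCN2 had 0.37 (SE 0.13, adjusted p = 0.742, edgeR). The unadjusted p of this term was under 0.05 in edgeR for 1211 of the 16030 genes in EC and for 1042 in PG/VG.

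Further targets of YAP and TEAD, 21 genes that include secreted factors, matrix proteins and signalling genes, were read as a separate list. In EC vs. control, 6 fell and 1 rose, where 5.38% of all genes tested fell and 8.07% rose, and 16 had an LFC below 0. The median LFC of the list was −0.16, and it ranged from −0.26 without EC replicate 4 to −0.086 without EC replicate 2. In PG/VG vs. control 2 fell and 0 rose, where 1.90% of all genes fell and 2.63% rose. The median was −0.042, with −0.12 without PG/VG replicate 2 and 0.021 without PG/VG replicate 4. In EC vs. PG/VG 0 passed in edgeR, where 0.299% of all genes were lower and 0.555% higher in EC, with a median of −0.13 (−0.056 without EC replicate 2). Without batch 4, 7 fell and 0 rose in EC vs. control, and 3 fell and 0 rose in PG/VG vs. control. The list was written with earlier results of these data known, and these counts are a description.

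EDN1, which encodes the vasoactive peptide endothelin 1, had the largest fall. It measured 15.9, 14.4 and 7.77 CPM in the control, 8.60, 8.81 and 4.93 CPM in PG/VG, and 6.90, 5.70 and 4.61 CPM in EC. Every EC library lay below every control, as for 7.42% of all genes tested. Within each batch PG/VG lay between control and EC. The LFC was −1.12 (SE 0.14, adjusted p = 1.08e-05) in EC vs. control and −0.76 (SE 0.13, adjusted p = 0.00185) in PG/VG vs. control, both in edgeR.

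F3, which encodes tissue factor, the starter of blood coagulation, measured 160.3, 151 and 202.1 CPM in the control, 122.6, 107.9 and 148.8 CPM in PG/VG, and 126.7, 115.2 and 148.4 CPM in EC. Both treated groups lay below the control, by an LFC of −0.39 (SE 0.066, adjusted p = 0.000383) in EC and −0.44 (SE 0.067, adjusted p = 0.000569) in PG/VG (edgeR). The EC vs. PG/VG LFC of F3 was 0.046 (SE 0.066, adjusted p = 0.834, edgeR).

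CRIM1, a transmembrane protein that binds growth factors of the BMP family, fell by 0.35 on the log2 scale (SE 0.075, adjusted p = 0.00318, edgeR), and THBS1, the matrix protein thrombospondin 1, fell by 0.28 (SE 0.065, adjusted p = 0.0053, edgeR). EDN1, F3, CRIM1 and THBS1 passed in EC vs. control in each of the 9 fits that left out 1 library. AREG, the growth factor amphiregulin, rose by an LFC of 0.54 (SE 0.13, adjusted p = 0.00823, edgeR). It had 6.67, 7.25 and 20.4 CPM in the control and 8.49, 8.38 and 37.2 CPM in EC, and it did not pass without control replicate 4 or EC replicate 4. The remaining calls of the list, named here after their values were seen, were the falls of TGFB2 (LFC −0.32) and RBMS3 (LFC −0.36). TGFB2 measured 216.8, 211.2 and 77.8 CPM in control batches 2, 3 and 4 and 150.8, 151.3 and 82.4 CPM in EC. In batch 4 its EC value was thus above the control, while RBMS3 was lower in EC in each batch. About 34.2% of the TGFB2 exon length overlaps other annotated genes. TGFB2 did not pass in 4 of the 9 fits (without control replicate 2 or 3 or EC replicate 2 or 3), and RBMS3 did not pass in 3 (without control replicate 4 or EC replicate 2 or 4).

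**Figure D4:**
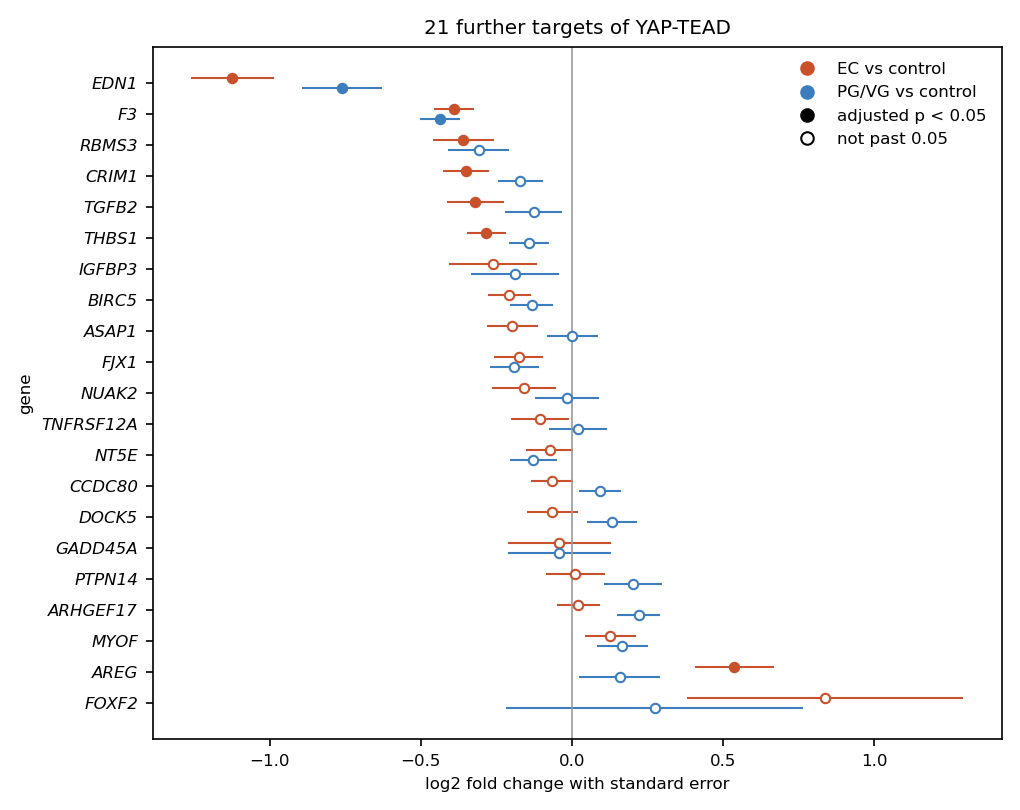
Points are the fitted LFC of 21 further targets in EC and in PG/VG, each against the control, with their standard errors, filled where the adjusted p was under 0.05, and ordered by the EC value. EDN1 is the lowest in both, at −1.12 and −0.76, and AREG is the filled point above 0.

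Upstream of YAP, 17 Hippo kinases and scaffolds were all tested. In EC vs. control 2 of the 17 fell and 0 rose, beside 5.38% and 8.07% of all genes, and in PG/VG vs. control 1 fell and 0 rose, beside 1.90% and 2.63%. The median LFC in EC vs. control was −0.046, with −0.12 without EC replicate 3 and −0.017 without EC replicate 2. RASSF1, a scaffold that binds the kinases MST1 and MST2, shares about 17.9% of its exon length with other annotated genes. It fell in both comparisons. It measured 87.0, 91.2 and 71.6 CPM in the control, 66.9, 74.1 and 58.0 CPM in PG/VG, and 63.6, 63.2 and 57.2 CPM in EC, with an LFC in edgeR of −0.44 (SE 0.074, adjusted p = 0.000373) for EC and −0.33 (SE 0.073, adjusted p = 0.0115) for PG/VG. Its call held in 9 of 9 fits without 1 library in EC and in 5 of 9 in PG/VG, where control replicates 2 and 3 and PG/VG replicates 2 and 4 ended it. WWC1 (KIBRA), a scaffold upstream of the LATS kinases, had an LFC of −0.24 (SE 0.075, adjusted p = 0.0379, edgeR) in EC and passed in 4 of 9 such fits, losing the call without any 1 control or without EC replicate 2 or 3. The kinases STK3, STK4 and LATS1 did not pass in either comparison with the control.

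Among 12 binding partners of YAP and LATS, 1 fell in EC vs. control, where 5.38% of all genes fell, and 1 rose in PG/VG vs. control, where 2.63% rose. YWHAE, a 14-3-3 protein of the family that holds phosphorylated YAP in the cytoplasm, had an LFC of −0.22 (SE 0.065, adjusted p = 0.0268, edgeR) in EC, and AMOTL1, the paralog of AMOTL2, had 0.28 (SE 0.070, adjusted p = 0.0208, edgeR) in PG/VG. Each passed in 4 of 9 fits without 1 library. Any 1 control ended both calls, as did EC replicate 3 or 4 for YWHAE and PG/VG replicate 2 or 4 for AMOTL1. Of the other TEAD genes and their cofactors, 5 of 6 were tested and 0 passed in any of the 3 comparisons between conditions in edgeR. VGLL3, a TEAD cofactor named here after its values were seen, passed in EC vs. control without control replicate 4 or EC replicate 4. It measured 181.2, 182.7 and 68.7 CPM in control batches 2, 3 and 4 and 128.3, 150.6 and 74.0 CPM in EC. EC was thus lower in batches 2 and 3 and higher in batch 4.

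Of the other CCN family genes, 2 of 4 were tested. CCN3, a matrix protein of the same family as CCN1 and CCN2, rose in EC vs. control by an LFC of 1.07 (SE 0.29, adjusted p = 0.0439, edgeR), with 2.10, 2.42 and 12.8 CPM in the control and 7.34, 7.41 and 15.9 CPM in EC. It was higher in batch 4 than in the other batches, the opposite of CCN1 and CCN2, and its call was lost without control replicate 2 or 3 or EC replicate 2.

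SRF and its MRTF coactivators respond to actin tension and share several targets with YAP, and 12 genes of this group were read beside the set. Of the 12, 2 fell and 0 rose in EC vs. control, beside 5.38% and 8.07% of all genes, and 11 had an LFC below 0, beside 48.5% of all genes, with a median of −0.12 (−0.18 without EC replicate 4). For PG/VG against the control 1 of them fell and 0 rose, beside 1.90% and 2.63% of all genes. There, 7 had an LFC above 0 and 5 below 0, beside 47.1% of all genes below 0. The median was 0.049, with −0.017 without PG/VG replicate 2. TAGLN, the actin-binding protein transgelin, measured 473.1, 517.9 and 180.6 CPM in control batches 2, 3 and 4, 430.7, 424.8 and 147.6 CPM in PG/VG, and 363.7, 309.4 and 129.2 CPM in EC, an LFC of −0.53 (SE 0.073, adjusted p = 4.48e-05, edgeR) in EC. Batch 4 was lowest in each condition, as for CCN2, but the EC library was below its control in all 3 batches. The EC vs. PG/VG LFC of TAGLN was −0.30 (adjusted p = 0.0525, edgeR). About 47.8% of the TAGLN exon length overlaps other annotated genes. FHL2, a LIM protein that binds SRF, had an LFC of −0.29 in both EC (adjusted p = 0.00703) and PG/VG (adjusted p = 0.0162) in edgeR, the second of which was lost in 4 of 9 fits without 1 library (control replicates 2 and 3, PG/VG replicates 2 and 4). In EC it was lost without control replicate 3 or EC replicate 3. In EC vs. PG/VG 0 of the 12 passed in edgeR, where 0.855% of all genes did, with a median LFC of −0.19. TAGLN passed there without control replicate 2 or 4, and VCL, named after its values were seen, passed without PG/VG replicate 3 or EC replicate 3. VCL was lower in EC than in PG/VG in each batch.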

How the data were processed

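RNA of 9 BEAS-2B cultures was sequenced by the authors. Per the labels and methods, reads were trimmed with fastp, aligned with STAR to GRCh38.p12 and counted on exons of Ensembl release 111 with featureCounts of Subread 2.0.4, leaving out multi-mapping and multi-overlapping reads. The strand setting is not given in the sources used here. The deposited values are the authors' raw counts per gene, not batch-adjusted.

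The tests covered genes that reached 10 counts in 3 or more libraries and were run with edgeR 4.0.16 in R 4.3.3 (TMM normalization, robust quasi-likelihood fit of all 9 libraries with condition and batch, adjustment after Benjamini-Hochberg over 16030 genes, threshold 0.05). CPM values use TMM-scaled library sizes. The SE is the absolute LFC over the square root of the test statistic, and 95% intervals use the moderated degrees of freedom. The labels name the replicate number as the batch, and deviations from the condition mean correlated at 0.432 to 0.795 in 9 same-number pairs, against −0.668 to 0.565 in 18 others. Pairs of number 2 with number 3 gave 0.381 to 0.565, and same-number pairs of 2 and of 3 gave 0.432 to 0.549. These correlations set batch 4 apart but do not separate batches 2 and 3. Replicates are biological per the methods. The lowest chi-square per gene within a condition was 3.66, so no 2 libraries of the same condition were duplicates. Pairs from different conditions were not checked in this way. Coordinates and exon lengths are from GENCODE release 44, where all listed symbols were found, and promoter sequences are from RefSeq on GRCh38.p14.

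The 10 genes and all lists were chosen with earlier results of these data known. A gene of the list of further targets is not reported here and was left out of its counts. Genes of the other lists were named as up to 5 with the lowest adjusted p among those called in EC vs. control and up to 3 in PG/VG vs. control. Alternatives were no replicate block, RLE or library size scaling, other filters, DESeq2 1.42.0 with batch, ComBat-Seq of sva 3.50.0 with DESeq2, each pair of conditions alone, each library left out and, added after seeing the data, all of batch 4 left out. Simulated counts of EC vs. control were used to try edgeR with and without the replicate block, DESeq2 with batch, and ComBat-Seq with DESeq2. The simulation did not cover the other alternatives. Its counts took their spread from the model with the batch, and their batch shift was the same in every condition. The simulated difference was larger than any of the 10 genes, whose largest LFC was −0.43. How often differences of that size are found was therefore not measured. Of 200 genes given a log2 difference of 1 in size, the main edgeR model called 162, beside 7 false calls. DESeq2 called 145 beside 7, edgeR lacking the block 96 beside 0, and ComBat-Seq with DESeq2 161 beside 70.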

Additional observations from a re-analysis of the deposited data

How the results depend on the processing

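Of the 10 genes, 1 was called in EC vs. control, and this became 0 without the replicate block and 2 (CCN2 and AXL) without a filter beyond 1 count, with ComBat-Seq and DESeq2, or without batch 4. In PG/VG vs. control 0 became 2 (CCN1 and AXL) with ComBat-Seq. In EC vs. PG/VG 0 became 2 (TEAD1 and AXL) without a filter, and 1 (AXL) with DESeq2 or with ComBat-Seq. Leaving out 1 library gave 1 to 2, 0 to 1 and 0 to 1 called genes in the 3 comparisons, with CCN2 added in EC without control or EC replicate 4 and in PG/VG without control replicate 4, and 4 to 6 for the batch. The LFC of AXL in EC vs. control lay between −0.46 and −0.37 over 9 other settings. Signs turned for small values. With library size as the only scaling YAP1 in EC vs. control became 0.011. Without batch 4, ANKRD1 in EC became −0.0012, YAP1 and WWTR1 in PG/VG −0.012 and −0.073, and CCN1 in EC vs. PG/VG −0.035. Leaving out 1 library gave, in EC vs. control, −0.20 to 0.028 for TEAD1, −0.056 to 0.14 for ANKRD1 and −0.22 to 0.025 for LATS2. In PG/VG vs. control it gave −0.0014 to 0.066 for YAP1, −0.044 to 0.11 for WWTR1 and −0.021 to 0.12 for LATS2, and in EC vs. PG/VG −0.033 to 0.12 for CCN1 and −0.17 to 0.033 for ANKRD1. Of the LFC values of the 10 genes over all alternatives, 509 kept sign and side of the threshold, 17 changed sign, 13 passed it newly and 1 lost it. For the called genes of the other lists, 277 values kept both, 65 lost the call and 0 changed sign. The cause was not tested.

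Over all genes, the fit without the replicate block called 16 genes in place of 2157 in EC vs. control, 1 in place of 727 in PG/VG vs. control and 1 in place of 137 between EC and PG/VG, and no gene named from the other lists stayed called without it. Without batch 4 the numbers were 1216, 324 and 80, and with ComBat-Seq and DESeq2 3099, 1735 and 658. On the simulated counts ComBat-Seq with DESeq2 made 70 false calls, against 7 for the main edgeR model. Without a filter EC vs. PG/VG gave 309, and with 2 groups alone PG/VG vs. control gave 1179 and EC vs. PG/VG 318. With 3 libraries per condition, the widest interval among the 9 genes not called in EC vs. control was that of CCN2, from −0.51 to −0.054.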
